A study of Mus musculus with 24 samples.

Results

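The first hour of the LPS response was measured by RNA-seq in bone marrow-derived macrophages (BMDMs) labelled FosKO, as 3 libraries taken after 1 h with LPS against 3 unstimulated libraries, 6 of the 24 libraries in the series. BMDMs are macrophages grown from marrow progenitors with L-cell conditioned medium, which supplies the macrophage growth factor M-CSF, and LPS is the lipid-anchored sugar of the outer membrane of Gram-negative bacteria, given here at 100 ng/ml from Salmonella Minnesota R595. The FosKO mice carried LysM-Cre and a floxed Fos gene (LysM-Cre Fos-fl/fl), and the comparison mice, labelled LysM, carried LysM-Cre, all on C57BL/6. For the LysM mice the series description names no floxed Fos, while the text of the study gives their Fos as FL/+, that is with 1 floxed copy, so a difference between the labels compares FosKO either with intact or with heterozygous floxed Fos. LysM-Cre places the Cre recombinase at the lysozyme locus Lyz2, which is active in myeloid cells, so both genotypes shared the Cre allele, the marrow culture and the overnight rest in low serum. The age of the marrow donors was not given in the sources used here. Each genotype had 3 libraries at 0, 0.5, 1 and 2 h, described in the methods of the study as biological replicates. The sources used here do not say whether same-group libraries came from separate animals or separate cultures, so the p-values measure the spread between these libraries. Of 24273 genes in the table, 13901 passed a filter on low values and were tested.

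As background, LPS is recognised by TLR4 with its co-receptors CD14 and MD-2. The adaptors MyD88 and TIRAP lead to NF-kB and MAP kinase activation, and the adaptor TRIF leads in addition to the kinase TBK1, to IRF3 and to transcription of interferon beta. Genes that need no new protein synthesis, the immediate early or primary response genes, are transcribed first, and many of their products, such as the IkB proteins, A20, the DUSP phosphatases and the ARE-binding decay factors, shut the signal down again. c-Fos, the product of Fos, is an immediate early transcription factor that pairs with Jun proteins to form AP-1.

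Fos itself was read first, because it is the deleted gene (chr12:85473890-85477273, plus strand, GRCm38). On the log2 scale of the table the unstimulated libraries labelled FosKO read 12.72, 12.41 and 12.67, and those of 1 h read 12.86, 12.67 and 12.82. Under the LysM label the unstimulated libraries read 11.17, 11.07 and 11.10, and those of 1 h read 11.02, 11.07 and 11.34. Fos RNA was thus higher, not lower, in the FosKO-labelled libraries at both times. At 0.5 h the LysM-labelled libraries stood at 13.43, 13.57 and 13.56 while the FosKO-labelled ones stayed at 12.81, 12.64 and 12.79. The 1 h change of Fos in FosKO-labelled libraries was 0.18 (SE 0.09), which did not pass the test (limma adjusted p = 0.122). With a replicate block within genotype in the limma fit it was called (adjusted p = 0.0265). A gene-level value does not show which exons the reads came from, so it does not check the deletion, and the groups are called by their labels throughout.

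Values of a gene are its log2 normalised expression, not corrected for gene length, so levels are compared within a gene and not between genes. Within a group the 3 libraries correlated at 0.996 to 0.997 (0 h) and 0.995 to 0.998 (1 h) across genes, with a median SD of 0.08 and 0.07 per gene. The table gives no read totals, so the counting error behind a value is unknown. The first 1 h library stood apart in 18S ribosomal RNA, at 16.86 against 19.21 and 19.39 in the others and 18.83 to 19.17 at 0 h. All 12 macrophage markers were above the filter, with a summed linear level of 263603 to 274625 at 0 h and 299423 to 300651 at 1 h. Of these 12, Cd14 had the largest change (log2 1.27). Markers of other cells were read next. The neutrophil list summed to 57.9 to 68.5 and then, without overlap, to 78 to 80, with Ly6g and Elane below the filter and S100a9 called higher (0.43, adjusted p = 0.0234). The dendritic cell list summed to 35.2 to 44.9 and then, again without overlap, to 54.7 to 60.5, with Flt3 below the filter and Xcr1 called higher (0.86, adjusted p = 0.000179). The T cell list summed to 274 to 363 and then 288 to 295, with Cd3e below the filter. Most of that sum was Cd4, with log2 means of 8.15 and then 8.10. The endothelial list summed to 569 to 927 and then 499 to 642, most of it Kdr (log2 means of 9.49 and 9.12). Such sums do not give the share of a cell type in the culture. The part of these markers in the gene results was not tested. The fit was repeated with a term marking the 5 libraries of the series whose 18S was below 18 on the log2 scale. With this 18S term 4554 genes were called at 1 h, and 4279 of them were among the 4534 calls given next. With the high 18S libraries only, these numbers were 3955 and 3694. In cultures measured whole, fewer cells that express a gene and less RNA of it per cell cannot be told apart.

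After 1 h of LPS, 4534 of the 13901 tested genes differed from 0 h in the FosKO-labelled libraries (32.6%), with 2447 higher (17.6%) and 2087 lower (15%), by limma at a Benjamini-Hochberg adjusted p below 0.05. Most called changes were small, since 3303 of them (72.8%) were below 0.5 on the log2 scale. A change of at least 2-fold was found for 312 genes that rose (2.24% of those tested) and 113 that fell (0.813%). Rises reached farther than falls: 109 genes rose by 4-fold or more and 34 by 8-fold or more, while 1 gene fell by 4-fold or more. That gene was the pseudogene Gm4294, picked here after its values were seen, whose libraries spanned 7.67 to 9.24 at 0 h and 4.73 to 7.50 at 1 h. The 3 libraries of 1 h lay wholly above or below the 3 of 0 h for 5440 genes (39.1%). The shares of 17.6% higher and 15% lower are the background for the counts of each list. The median difference over all tested genes was 0.00. The share of higher genes among the calls rested on the scaling of the table: it was 54.0% as deposited, 35.3% after quantile normalisation and 62.1% after centring each library on its median.

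**Figure D1:**
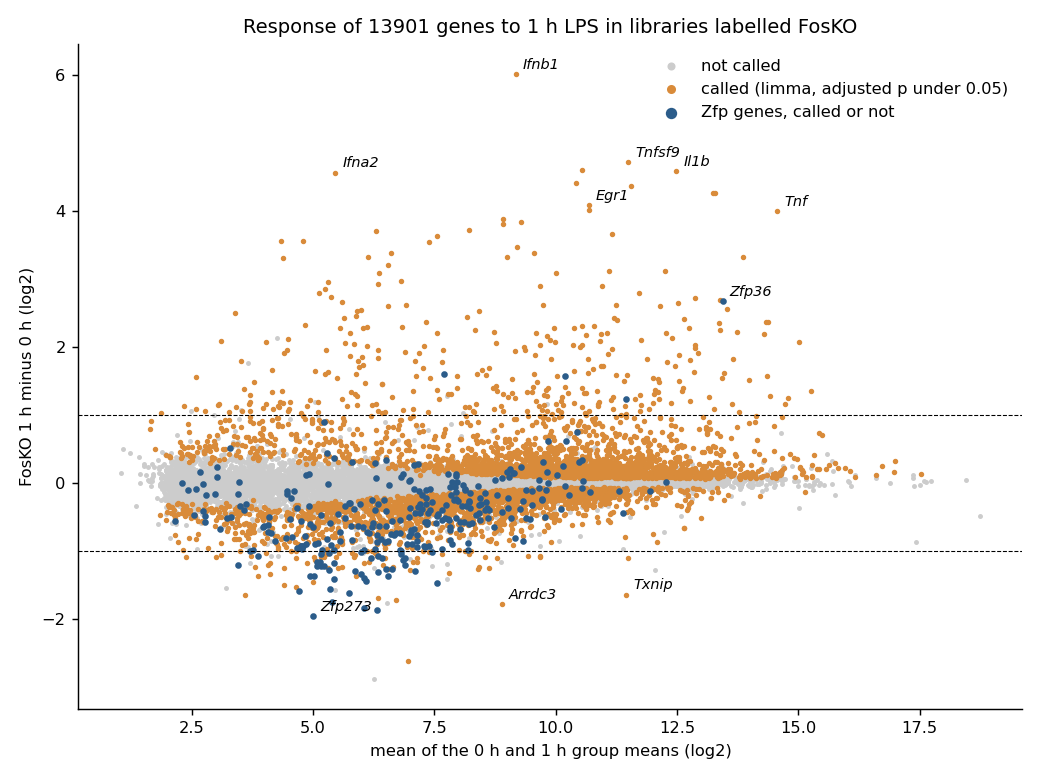
Log2 difference at 1 h in FosKO-labelled libraries (y axis) against the mean of the 0 h and 1 h group means (x axis, log2) for the 13901 tested genes, with called genes in orange, Zfp genes in blue whether called or not, and dashed lines at a 2-fold change. Rises extend to 6.01 and named falls to -1.97, and most called points lie within 0.5 of zero.

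The 20 genes with the largest rises, taken among called protein-coding genes that reached a linear mean of 50 at either time and did not overlap between the times, rose by 3.55 to 6.01 on the log2 scale. Ifnb1, the gene of interferon beta, led them. Its libraries read 6.10, 6.15 and 6.26 at 0 h and 12.11, 12.18 and 12.24 at 1 h, a 64.2-fold rise (log2 6.01, SE 0.12, adjusted p = 4.22e-19). Tnfsf9, the ligand of the costimulatory receptor 4-1BB, went from 9.07, 9.08 and 9.27 to 13.81, 13.86 and 13.89, a 26.2-fold rise. The interleukin-1 genes followed, Il1a from 8.19, 8.24 and 8.27 to 12.73, 12.90 and 12.88 (24.3-fold) and Il1b from 10.14, 10.19 and 10.26 to 14.71, 14.76 and 14.86 (23.8-fold). In each of these 4 genes the distance between the times exceeded the range among the 3 libraries of either time many times over.

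Promoters are shown for the largest named rises that had a RefSeq window here, and that of Zfp273, which had the largest named fall, is set beside them. They were chosen by the size of the change and not by the letters they carry. Each line gives the 250 bases upstream of the RefSeq start (GRCm38.p6), read 5' to 3' on the gene's own strand. Ifnb1 lies at chr4:88522795-88523044 (minus strand), Il1a at chr2:129309973-129310222 (minus), Il1b at chr2:129371140-129371389 (minus) and Zfp273 at chr13:67813566-67813815 (plus). Capitals mark matches to an NF-kB form (GGGNNNTTCC), the IRF core (AANNGAAA), AP-1 (TGANTCA) or the TATA box (TATAAA), and the first base of a match is counted from the start site.
Ifnb1: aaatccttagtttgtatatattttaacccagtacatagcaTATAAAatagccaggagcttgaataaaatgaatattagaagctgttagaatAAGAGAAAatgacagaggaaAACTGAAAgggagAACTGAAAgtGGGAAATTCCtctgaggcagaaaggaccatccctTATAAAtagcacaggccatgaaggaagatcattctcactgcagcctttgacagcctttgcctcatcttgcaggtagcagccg
Il1a: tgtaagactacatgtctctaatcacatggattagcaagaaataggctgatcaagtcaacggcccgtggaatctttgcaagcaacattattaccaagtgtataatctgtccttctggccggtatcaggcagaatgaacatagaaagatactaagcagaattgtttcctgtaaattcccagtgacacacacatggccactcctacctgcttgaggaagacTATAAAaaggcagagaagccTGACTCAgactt
Il1b: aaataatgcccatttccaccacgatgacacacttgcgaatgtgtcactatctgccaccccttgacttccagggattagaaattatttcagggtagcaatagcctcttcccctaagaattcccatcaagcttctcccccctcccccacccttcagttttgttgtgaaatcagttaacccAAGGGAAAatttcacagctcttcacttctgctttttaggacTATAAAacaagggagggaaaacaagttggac
Zfp273: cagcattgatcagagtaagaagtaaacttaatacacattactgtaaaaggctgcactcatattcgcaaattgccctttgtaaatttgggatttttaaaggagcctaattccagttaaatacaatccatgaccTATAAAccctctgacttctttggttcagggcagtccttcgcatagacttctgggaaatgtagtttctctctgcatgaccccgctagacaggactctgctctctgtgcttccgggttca
In Ifnb1 the NF-kB match GGGAAATTCC began at -116, with IRF core matches upstream of it at -159, -139 and -126 and TATAAA at -210 and -82. Il1a had TGACTCA at -12 and TATAAA at -32, and Il1b had an IRF core match at -72 and TATAAA at -31. Zfp273 had TATAAA at -118 and no other searched letters in the window. The windows of Tnfsf9 and of 7 other named rises or falls were not used here.

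Over the 7604 tested genes with a single RefSeq window of 300 bases (250 before the start and 50 after), letters on either strand were counted. TATAAA was present in 34 of 180 promoters of genes that rose at least 2-fold (18.9%), in 5 of 69 of those that fell (7.25%) and in 6.97% of all. TGANTCA was present in 10%, 4.35% and 4.93%, and GAAANNGAAA in 8.33%, 1.45% and 3.47%. For NF-kB, GGGNNTTNCC gave 10.6%, 4.35% and 5.48%, and GGGNNNTTCC, searched after the sequences had been seen, 13.3%, 8.70% and 6.48%. The IRF core AANNGAAA, also searched afterwards, was common everywhere, at 26.7%, 20.3% and 18.2%, and overlaps the GAAANNGAAA matches. The cAMP response element TGACGTCA stood at 4.44%, 5.80% and 3.39% and the CArG box, which SRF binds, at 2.22%, 0% and 1.25%. A match describes the letters in the window, and the shares carry no test.

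Immediate early genes rose nearly as a group. Of 32 tested, 30 rose, 1 fell and 18 rose at least 2-fold, with a median of 1.55 against 0.00 over all genes. Egr1 (chr18:34859823-34864984, plus strand), a zinc finger factor downstream of ERK, rose from 8.77, 8.52 and 8.63 to 12.65, 12.78 and 12.72 (16.9-fold, SE 0.10 on the log2 scale, adjusted p = 4.86e-18). Its relatives Egr2 and Egr3 rose 7.45-fold and 7.77-fold, and the orphan nuclear receptor gene Nr4a1 6.11-fold. Ier2 rose 4.21-fold, Ier3, a survival gene, 4.75-fold, and Btg2, an antiproliferative gene, 4.57-fold. Csrnp1, a nuclear protein gene induced by axin, rose from 9.22, 9.32 and 9.47 to 12.98, 13.01 and 12.99 (12.6-fold). Gem, a small GTPase of the RGK family and outside the list, rose from 6.18, 6.27 and 6.61 to 10.02, 10.07 and 10.12 (13.2-fold). Among Krüppel-like factors of the list, Klf2 rose 2.98-fold and Klf6 2.37-fold, whereas Klf10 was the member that fell, from 9.45, 9.34 and 9.50 to 8.82, 8.81 and 8.90 (log2 -0.59, SE 0.06). Mafk did not pass the test, at 0.06 (SE 0.07, adjusted p = 0.571).

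AP-1 and related bZIP genes were mixed, with 15 of 25 higher, 3 lower, 6 at least 2-fold higher and a median of 0.34. Besides Fos, which was not called in the main fit, the Fos family members all rose: Fosb 4.85-fold, Fosl1 1.62-fold and Fosl2 1.65-fold. Fosb was the least even of these, at 4.37, 4.41 and 4.45 at 0 h and 7.34, 6.70 and 6.02 at 1 h. In the Jun family Junb rose 5.32-fold, from 11.41, 11.40 and 11.51 to 13.81, 13.88 and 13.87, while Jund rose 1.41-fold and Jun 1.27-fold. The small Maf gene Maff rose 9.99-fold, Jdp2, an AP-1 repressor, 3.66-fold and Atf3, a stress-induced repressor, 1.75-fold from an already high 13.30 to 13.38. Cebpb and Cebpd each rose 2.07-fold. The myeloid factor Cebpa fell by 0.43 (adjusted p = 4.08e-05).

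All 5 NF-kB subunit genes rose, with a median of 0.85, and Rel, the gene of c-Rel, moved most. Rel went from 11.26, 11.33 and 11.43 to 13.41, 13.41 and 13.58 (4.36-fold, adjusted p = 7.62e-18), against 1.87-fold for Nfkb2, 1.80-fold for Relb, 1.59-fold for Rela and 1.38-fold for Nfkb1. Genes of the IkB proteins and other NF-kB feedback partners rose in 13 of 18 tested cases and none was called lower as deposited (2 after quantile normalisation), with 9 at least 2-fold higher and a median of 1.10. Nfkbiz, which codes for the nuclear IkB zeta, had the smallest adjusted p named here: 11.14, 11.13 and 11.18 became 15.37, 15.43 and 15.42, a 19.1-fold rise (SE 0.04 on the log2 scale, adjusted p = 8.27e-25). Tnfaip3, the gene of the ubiquitin-editing enzyme A20, rose from 12.12, 12.18 and 12.28 to 15.48, 15.51 and 15.53 (9.98-fold). Nfkbia, the gene of IkB alpha, rose 6.40-fold, Nfkbid 6.09-fold and Bcl3 1.56-fold.

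The receptor pathway itself moved less. Of 40 TLR4 co-receptor, adaptor and kinase genes, 21 rose, 4 fell and 3 rose at least 2-fold, with a median of 0.14, and the split was 17 to 9 after quantile normalisation. Cd14 rose 2.41-fold, from 13.95, 13.71 and 13.70 to 15.07, 15.01 and 15.09. The ubiquitin ligase gene Peli1 rose 2.12-fold, the kinase gene Map3k8 (Tpl2, which activates ERK) 2.06-fold, Irak2 1.64-fold, Myd88 1.37-fold and Ticam1, the gene of TRIF, 1.35-fold. Tlr4 fell, from 11.57, 11.63 and 11.67 to 11.36, 11.33 and 11.29 (log2 -0.30, adjusted p = 3.94e-05), as did the adaptor gene Tirap (log2 -0.45) and the TAK1 partner Tab1 (log2 -0.47). Among 10 Toll-like receptor genes 3 rose and 3 fell, and Tlr2, at 2.33-fold, was the member that rose at least 2-fold.

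**Figure D2:**
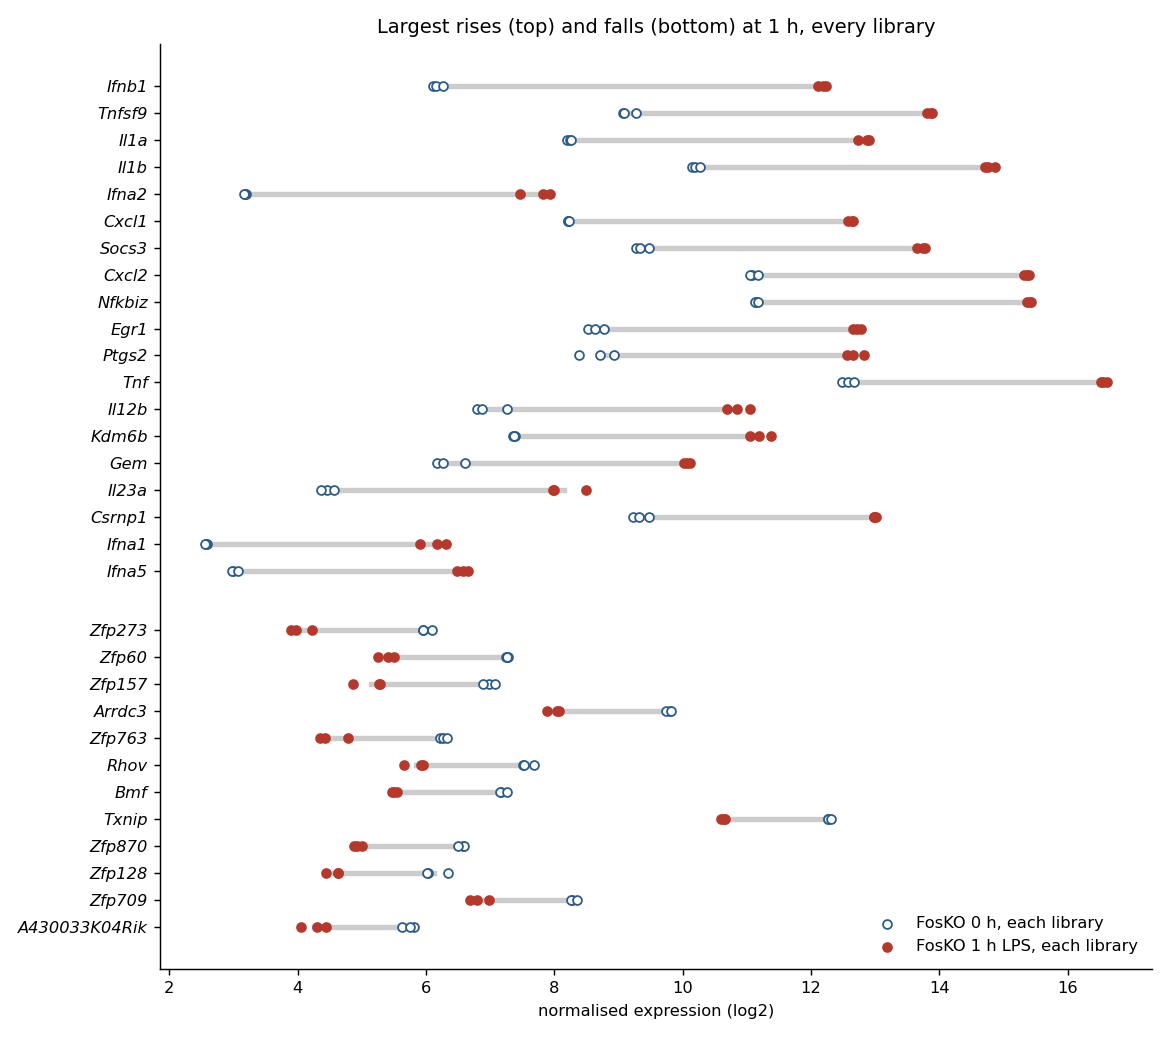
Log2 value of the reported rises and falls in each of the 3 libraries of 0 h and the 3 of 1 h labelled FosKO (x axis, open points for 0 h and filled points for 1 h, with a grey bar joining the group means). The groups do not overlap in any gene drawn, which the choice of the genes required, and the spread within a group is small beside the change.

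Cytokine genes had 26 of 33 tested members higher and none called lower as deposited (2 after quantile normalisation), 19 of them by at least 2-fold, with a median of 1.46. Tnf, already at 12.48, 12.57 and 12.66, reached 16.52, 16.56 and 16.62 (15.9-fold, adjusted p = 2.17e-21). The subunits of the interleukin-12 family differed among themselves. Il12b, the shared p40 chain, rose 14.7-fold, from 6.80, 6.88 and 7.27 to 10.68, 10.85 and 11.05, and Il23a, the p19 chain of interleukin-23, 13-fold, from 4.45, 4.56 and 4.36 to 7.97, 8.0 and 8.50. Il12a, the p35 chain of interleukin-12, was at 2.03 to 2.04 and then 2.02 to 2.41, a difference of 0.19 (SE 0.12, adjusted p = 0.234) that did not pass the test. Il27 rose 5.74-fold. Il6 rose 9.15-fold, from 4.86, 4.84 and 5.12 to 8.03, 8.05 and 8.32, and its relative Lif 7.69-fold. Edn1, the gene of the vasoconstrictor peptide endothelin-1, rose 11.6-fold. The colony-stimulating factor genes Csf2 (GM-CSF) and Csf1 (M-CSF) rose 7.20-fold and 3.53-fold. Il10, which codes for the anti-inflammatory interleukin-10, rose 2.23-fold, from 5.60, 5.84 and 5.73 to 6.95, 6.82 and 6.88 (log2 1.16, SE 0.13, adjusted p = 7.11e-07).

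Chemokine genes had 16 of 21 tested members higher, none called lower as deposited (1 after quantile normalisation) and 10 at least 2-fold higher, with a median of 0.96. Among the neutrophil-attracting CXCR2 ligands, Cxcl1 rose from 8.22, 8.21 and 8.23 to 12.64, 12.58 and 12.65 (21.2-fold), Cxcl2 from 11.08, 11.05 and 11.18 to 15.37, 15.33 and 15.40 (19.2-fold) and Cxcl3 3.23-fold. Of the monocyte and T cell attractants, Ccl3 rose 5.89-fold, Ccl4 5.10-fold, Ccl2 4.05-fold, Ccl22 2.98-fold and Ccl7 2.52-fold. The interferon-linked Cxcl9 and Cxcl10 had wide 0 h values. Cxcl10 read 12.17, 12.84 and 13.20 at 0 h and 14.38, 14.61 and 14.66 at 1 h (3.51-fold, SE 0.20), and Cxcl9 read 7.52, 7.90 and 8.47 and then 7.92, 8.17 and 8.31 (adjusted p = 0.663).

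Type I interferon genes started from low values in the table. All 11 that passed the filter rose, 9 of them at least 2-fold, with a median of 2.49, but the filter could be passed through the stimulated libraries alone, so the count is no support for the list. After Ifnb1, Ifna2 rose from 3.19, 3.18 and 3.17 to 7.47, 7.82 and 7.93 (23.5-fold, adjusted p = 4.02e-16). Ifna1 rose from 2.58, 2.57 and 2.56 to 5.90, 6.17 and 6.31, Ifna5 from 2.99, 2.98 and 3.08 to 6.48, 6.58 and 6.65, and Ifna4 from 2.74, 2.73 and 2.72 to 5.70, 6.10 and 6.31. Ifna16 rose 5.63-fold, Ifna6 4.24-fold, Ifna9 2.94-fold, Ifnab 2.04-fold, Ifna14 1.86-fold and Ifna11 1.73-fold. These genes sit side by side on chromosome 4 and share near-identical coding sequence, so the split of reads between them is uncertain. Their 0 h values were nearly identical between libraries, with a median SD of 0.00706 against 0.08 for all genes. Whether such even values measure RNA or a floor of the deposited scale was not tested, and the fold changes rest on that baseline.

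The genes that type I interferon induces had called rises at a share close to that of all genes. Of 48 tested, 8 rose (16.7% against 17.6% of all), 1 fell (2.08% against 15%) and 4 rose at least 2-fold, with a median of 0.06, and after quantile normalisation 6 rose and 8 fell. Those at least 2-fold higher were Gbp5 (2.45-fold), Ifi205 (2.26-fold), Oasl1 (2.07-fold) and Ifit1 (2.05-fold). The 0 h values of the list were spread, with a median SD of 0.25 against 0.08 for all genes. Rsad2, the antiviral viperin gene, read 14.82, 15.57 and 15.72 at 0 h and 15.51, 15.95 and 15.90 at 1 h, a difference of 0.42 (SE 0.19, adjusted p = 0.106). Mx1 read 12.08, 12.54 and 12.72 and then 12.17, 12.54 and 12.48. The first library was the lowest of its group in both genes, at 0 h and again at 1 h. Without the third 0 h library, 15 genes of the list rose, and Rsad2 was among the calls (0.59, adjusted p = 0.0299). Rsad2 was also called without the first 1 h library (0.56, adjusted p = 0.0487), with an 18S term (0.50, adjusted p = 0.0435) and with a replicate block within genotype (0.42, adjusted p = 0.0236). At 2 h the median of the list was 0.89. Among 10 IRF genes 4 rose and 2 fell, and 3 rose and 3 fell after quantile normalisation. Irf1 rose from 11.74, 12.01 and 12.19 to 13.81, 13.91 and 13.93 (3.74-fold) and Irf4 3.32-fold, while Irf7, at 12.71, 12.97 and 13.13 and then 12.74, 12.98 and 12.96, did not pass the test. Stat2, the gene of a transcription factor that carries interferon signals, fell from 13.04, 13.29 and 13.44 to 12.61, 12.81 and 12.78 (log2 -0.53).

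**Figure D3:**
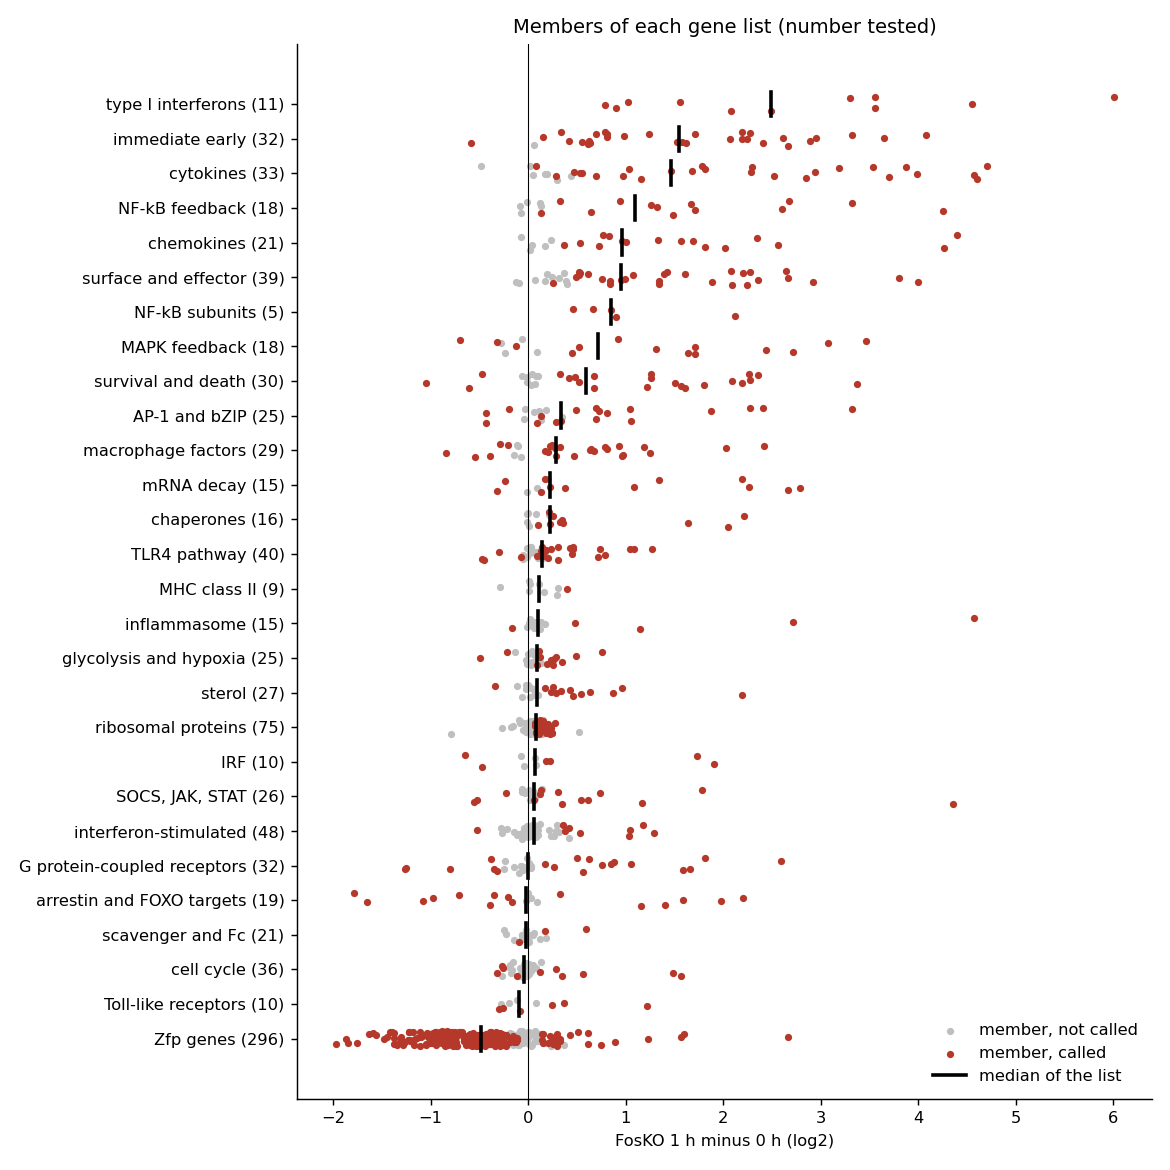
Log2 difference at 1 h in FosKO-labelled libraries (x axis) for each tested member of each gene list (y axis), with the list median drawn as a black bar, called members in red and others in grey. Medians run from -0.48 for the Zfp genes to 2.49 for the type I interferons, and the interferon-induced genes lie about zero.

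Phosphatases and other brakes on MAP kinase signalling had 11 of 18 members higher, 3 lower and 8 at least 2-fold higher, with a median of 0.72. Dusp2, a nuclear phosphatase, rose 11.1-fold, from 7.55, 7.46 and 7.40 to 10.84, 10.97 and 11.02. Errfi1 (MIG6), an inhibitor of the EGF receptor, rose 8.44-fold and Spry1, an inhibitor of Ras-ERK signalling, 6.60-fold. Dusp5, which acts on nuclear ERK, rose 5.41-fold, from 7.01, 6.92 and 6.94 to 9.47, 9.31 and 9.40, and Dusp1, which acts on p38 and JNK, 3.28-fold. The cytoplasmic ERK phosphatase genes went the other way, Dusp6 from 9.69, 9.63 and 9.58 to 8.96, 8.95 and 8.90 (log2 -0.69, adjusted p = 2.48e-08) and Dusp7 by -0.32 (adjusted p = 1.38e-05).

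Among 15 mRNA decay genes 10 rose, 2 fell and 6 rose at least 2-fold, with a median of 0.22. Zfp36, the gene of tristetraprolin, which binds AU-rich elements in cytokine mRNAs, rose from 12.04, 12.08 and 12.18 to 14.74, 14.80 and 14.77 (6.35-fold). The endonuclease gene Zc3h12a (Regnase-1) rose 4.82-fold and its relative Zc3h12c, from 10.24, 10.29 and 10.45 to 13.11, 13.05 and 13.18, 6.89-fold. Zfp36l2, a tristetraprolin relative, fell by 0.31 (adjusted p = 5.22e-05). Of 26 SOCS and JAK-STAT genes 11 rose and 3 fell, with a median of 0.07, and 7 rose and 10 fell after quantile normalisation. Socs3, the inhibitor of gp130 signalling, rose 20.6-fold, from 9.28, 9.33 and 9.48 to 13.64, 13.75 and 13.77, far more than Cish at 3.44-fold, the receptor gene Il10ra at 2.25-fold and Socs1 at 1.53-fold.

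Surface and effector genes of activated macrophages had 29 of 39 members higher, none called lower as deposited (1 after quantile normalisation) and 18 at least 2-fold higher, with a median of 0.95. Ptgs2, the cyclooxygenase-2 gene of prostaglandin synthesis, rose from 8.38, 8.71 and 8.94 to 12.55, 12.65 and 12.83 (16-fold). Plat, the gene of tissue plasminogen activator and outside the list, rose 8.45-fold. Cd83 rose 6.25-fold, Icam1 4.73-fold, Cd40 4.22-fold, the C-type lectin gene Clec4e 3.04-fold and Sod2 2.63-fold. Irg1, which makes itaconate, went from 12.66, 13.26 and 13.55 to 15.37, 15.58 and 15.61 (5.14-fold). Nos2, the inducible nitric oxide synthase, read 7.12, 7.58 and 8.31 and then 7.47, 8.23 and 8.50, and Cd86 differed by -0.10, and neither passed the test (adjusted p = 0.324 and 0.47). Nos2 rose by 3.84 at 2 h.

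Survival and apoptosis genes had 19 of 30 members higher and 3 lower, 13 of them at least 2-fold higher and 1 at least 2-fold lower, with a median of 0.59. Phlda1 rose 10.4-fold. On the anti-apoptotic side, Bcl2a1a rose 5.13-fold and Bcl2a1d 4.83-fold, though these near-identical copies can share reads, and Pim1 rose 4.82-fold, Cflar 2.85-fold and Mcl1 1.34-fold, the last not called after quantile normalisation (adjusted p = 0.879). Of the pro-apoptotic BH3-only genes, Bcl2l11 (BIM) rose 3.49-fold, from 11.87, 11.83 and 11.90 to 13.58, 13.63 and 13.80. Bbc3 (PUMA) and Bmf, of the same class but Bmf outside the list, fell, Bmf from 7.17, 7.15 and 7.27 to 5.46, 5.49 and 5.55 (log2 -1.69, adjusted p = 7.46e-11) and Bbc3 by -0.61 (adjusted p = 2.36e-08). Gadd45g, a stress sensor, fell by 1.05, and the cell cycle inhibitor Cdkn1a rose 2.98-fold.

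Inflammasome genes had 4 of 15 members higher. Besides Il1b, the sensor gene Nlrp3 rose from 11.46, 11.46 and 11.62 to 14.15, 14.20 and 14.33 (6.57-fold) and Mefv, the pyrin gene, 2.22-fold, while the adaptor gene Pycard (ASC) was called lower by 0.17 (adjusted p = 0.041), a call lost without any of 4 single libraries (adjusted p up to 0.234). The Pycard call was also lost after median centring, without the low-value filter and without the variance trend (adjusted p = 0.0712, 0.0678 and 0.0512). It was lost as well with FosKO-labelled libraries only (adjusted p = 0.12) and with only the groups compared (0.184). Of 32 chemoattractant and related receptor genes 13 rose, 6 fell, 5 rose and 2 fell at least 2-fold. The chemerin-binding receptor gene Ccrl2 rose 6.05-fold and Gpr84, a receptor for medium-chain fatty acids, 3.51-fold. The cannabinoid receptor gene Cnr2 fell, from 9.18, 9.07 and 8.91 to 7.81, 7.79 and 7.81 (log2 -1.25), as did the lysophosphatidic acid receptor gene Lpar6, from 9.33, 9.23 and 9.23 to 8.13, 8.0 and 7.88 (log2 -1.26), and the sphingosine-1-phosphate receptor gene S1pr2 (log2 -0.80).

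The remaining lists differed in how many members were called. Of 29 macrophage and lineage transcription factor genes outside the families above, 20 rose (69.0%) and 5 fell (17.2%), 4 rose at least 2-fold and the median was 0.29, with Id3 rising 5.37-fold and Tfec 4.07-fold, while Hhex fell by 0.85 and the lineage factor Spi1 (PU.1) rose 1.16-fold, a call lost after quantile normalisation (adjusted p = 0.196). Kdm6b, the gene of a histone H3K27 demethylase, rose from 7.35, 7.39 and 7.37 to 11.19, 11.04 and 11.37 (14.2-fold). Scavenger and Fc receptor genes had 2 of 21 higher and 1 lower, and 1 higher and 12 lower after quantile normalisation, with Fcgr2b rising 1.51-fold. Sterol genes had 12 of 27 higher and 1 lower, and 9 higher and 5 lower after quantile normalisation. Ch25h, which makes 25-hydroxycholesterol, rose 4.59-fold and Insig1 1.95-fold, and the efflux pump gene Abcg1 fell by 0.34. Glycolysis and hypoxia genes had 11 of 25 higher and 2 lower, and 5 higher and 10 lower after quantile normalisation, with the glucose transporter gene Slc2a1 rising 1.69-fold. Of 16 chaperone genes 10 rose (62.5%) with a median of 0.22, and 7 rose and 3 fell after quantile normalisation, with the near-identical Hspa1a and Hspa1b, whose reads can be exchanged, rising 4.14-fold and 4.64-fold and Dnajb4 3.13-fold. Cell cycle genes had 6 of 36 higher (16.7%) and 4 lower (11.1%) as deposited, close to or below the shares of all genes. In this list 5 rose and 8 fell after quantile normalisation, and 6 rose and 7 fell with an 18S term. Among its members Mki67 rose 2.80-fold and Ccnd1 fell by 0.26. Of 9 MHC class II genes 1 was called, Cd74 at 1.32-fold (adjusted p = 0.015), and it was lost without any of 3 single libraries (adjusted p up to 0.0915). The Cd74 call was also lost after quantile normalisation (adjusted p = 0.0704), with FosKO-labelled libraries only (0.076) and with only the groups compared (0.0714). The 75 ribosomal protein genes had 33 higher and none called lower with a median of 0.09, but 2 higher and 22 lower with a median of -0.07 after quantile normalisation, so their direction flips with the scaling.

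The falls were led by zinc finger genes. Most genes named Zfp and a number code for C2H2 zinc finger proteins, many of them KRAB repressors of transposable elements. Of 296 tested, 211 fell, 42 of them at least 2-fold, and 24 rose, with a median of -0.48. Under quantile normalisation 205 fell and 25 rose. They made up 37.2% of the genes that fell at least 2-fold and 2.13% of those tested. Zfp273 fell from 5.95, 6.09 and 5.95 to 3.97, 3.90 and 4.22 (3.92-fold, SE 0.15 on the log2 scale, adjusted p = 1.73e-09). Zfp60 fell from 7.28, 7.25 and 7.26 to 5.51, 5.41 and 5.25 (3.66-fold) and Zfp157 from 6.99, 6.89 and 7.07 to 5.28, 5.27 and 4.86 (3.60-fold). Zfp763 fell 3.36-fold, Zfp870 3.09-fold, Zfp128 2.95-fold, Zfp709 2.78-fold and A430033K04Rik, which like Zfp157 lies on chromosome 5, 2.77-fold.

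The Zfp genes lie in clusters of related copies, in which reads can be split wrongly between neighbours. On chromosome 13, 23 of 27 tested fell and 10 fell at least 2-fold, with a median of -0.85. On chromosome 17 the counts were 27 of 36 and 8, with a median of -0.64, and on chromosome 7, which holds the most, 62 of 81 and 11, with a median of -0.55. On chromosomes 1, 16 and 18 the medians were 0.12, 0.01 and -0.03. Of the 4 that rose at least 2-fold, Zfp36 is the CCCH decay factor described above and not of the C2H2 type, and the others were Zfp719 (3.02-fold), Zfp131 (2.97-fold) and Zfp263 (2.35-fold).

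Among the other large falls was the alpha-arrestin gene Arrdc3, from 9.80, 9.74 and 9.82 to 8.07, 8.04 and 7.89 (3.45-fold, adjusted p = 2.62e-16). Its relative Txnip, an inhibitor of thioredoxin and of glucose uptake, fell from 12.26, 12.27 and 12.30 to 10.59, 10.66 and 10.64 (3.13-fold, adjusted p = 3.84e-16). The list of arrestins and growth-factor-deprivation genes was split, with 9 of 19 lower and 6 higher, 3 lower and 5 higher by at least 2-fold. Tsc22d3, the glucocorticoid-induced leucine zipper gene, fell by 1.07, whereas Arrdc4 rose 2.23-fold, Ccng2 2.64-fold, Cited2 3.95-fold and Trib1 4.60-fold. Rhov, a small GTPase, fell from 7.68, 7.51 and 7.52 to 5.96, 5.66 and 5.92 (3.30-fold) and Gna11, a G protein alpha subunit gene, 2.40-fold.

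Genes that moved at least 2-fold were shorter than the rest, as a description with no test. Those that rose had a median span of 10.3 kb and 4 exons and those that fell 12.9 kb and 4 exons, against 19.6 kb and 8 exons over all tested genes. Of the 71 falls outside the Zfp genes the median span was 9.5 kb.

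The earlier and later times place these changes in sequence. All of these comparisons share libraries, so their values are given side by side. Relative to unstimulated cells, immediate early genes had a median of 1.18 after 0.5 h, 1.55 after 1 h and 0.73 after 2 h, and type I interferons one of 0.03, 2.49 and 3.20. For Zfp genes they were -0.06, -0.48 and -0.44. The interferon medians cover only genes that passed the filter on low values. The stimulated libraries alone could pass it, so the course of these medians is no support for the list. Of the 20 named rises, 1 had its highest mean at 0.5 h, 10 had it at 1 h and 9 had it at 2 h. Of the 12 named falls the lowest mean was at 1 h for 8 and at 2 h for 4.

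Between 0.5 and 1 h, 3819 genes changed (27.5%), with 2013 higher (14.5%) and 1806 lower (13%) by the same test, and higher genes made up 52.7% of the calls as deposited, 39.1% after quantile normalisation and 62.3% after median centring. Type I interferon genes and Il12b had the largest rises of this interval among the genes named. Ifnb1 stood at 7.75, 7.89 and 8.45 at 0.5 h and rose by 4.15 to 1 h (adjusted p = 6.84e-16), Ifna2 by 4.24, Ifna5 by 3.56, Ifna1 by 3.52 and Ifna4 by 3.27. Il12b rose by 3.64, Plat by 2.99 and Il23a by 2.90. For Il12b and Plat nearly the whole 1 h change came in this interval, since they differed from 0 h by 0.24 and 0.09 at 0.5 h.

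Other early genes were already on the way down. Egr1 stood 5.58 above its unstimulated level after 0.5 h, 4.08 after 1 h and 1.97 after 2 h, and its step from 0.5 to 1 h was -1.50 (adjusted p = 1.9e-10). Ier2 was at 3.59, 2.07 and 0.50 above 0 h, with a step of -1.52. Among the genes that fell, Bmf was at 0.00, -1.69 and -2.52, so that its whole 1 h fall came after 0.5 h. Zfp273 fell by 1.67 in the interval, Zfp60 by 1.62, Zfp763 by 1.41 and Zfp157 by 1.40, and Gna11, which stood at 0.13 above 0 h at 0.5 h, by 1.39. Txnip stood at -0.65, -1.65 and -0.78 and Arrdc3 at -0.45, -1.78 and -2.71, so one was back above its 1 h value by 2 h and the other was not.

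**Figure D4:**
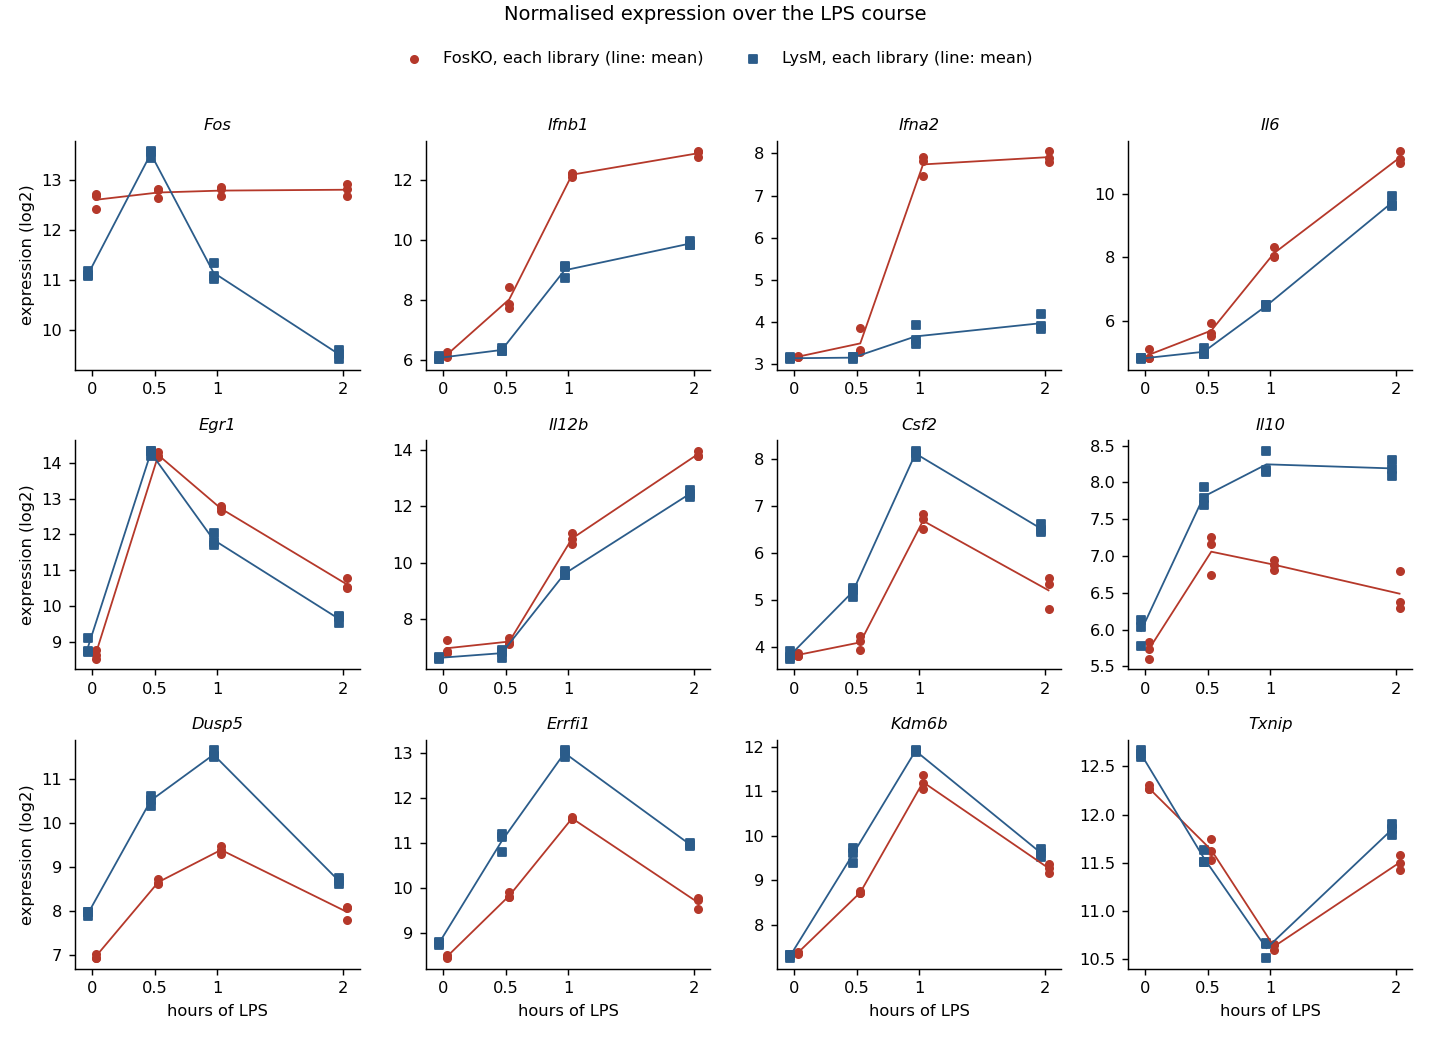
Log2 value (y axis) at 0, 0.5, 1 and 2 h after LPS (x axis) for 12 genes, with a point for each library and lines through the group means of the FosKO and LysM labels. Ifnb1, Ifna2, Il6 and Il12b climb higher in the FosKO-labelled libraries, Csf2, Il10, Dusp5, Errfi1 and Kdm6b climb higher in the LysM-labelled ones, and Fos is nearly flat in the FosKO-labelled libraries.

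The LysM-labelled libraries, which share no library with the FosKO-labelled ones, gave a largely parallel 1 h response. There 4970 genes were called, 325 at least 2-fold higher and 180 at least 2-fold lower. The genes at least 2-fold higher under both labels numbered 260, or 83.3% of the FosKO-labelled set and 80% of the LysM-labelled set. Those at least 2-fold lower under both numbered 84, or 74.3% and 46.7%. No gene moved 2-fold in opposite directions, and the log2 differences correlated at 0.867 across tested genes, which are not independent replicates and share the normalisation of the table. All 20 named rises and all 12 named falls were called in the same direction under the LysM label.

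The test of the difference between the responses (the 1 h change under the FosKO label minus that under the LysM label) called 169 genes (1.22%), 68 with a higher (0.489%) and 101 with a lower value under the FosKO label (0.727%), and 1073 genes had an unadjusted p below 0.05. With the high 18S libraries only, which leaves 1 LysM-labelled library of 1 h, 93 were called, 61 higher and 32 lower, so the side with more calls turned. Of the 169, 80 were among the 312 genes that rose at least 2-fold under the FosKO label, 39 positive and 41 negative, and 1 was among the 113 that fell. The largest called positive differences among the genes named were in the type I interferon genes. Ifnb1 reached 9.14, 9.11 and 8.73 in the LysM-labelled libraries at 1 h, from 6.05, 6.04 and 6.14, a rise of 2.92 against 6.01 under the FosKO label (difference 3.09, SE 0.18, adjusted p = 6.66e-10). Ifna2 rose by 0.52 under the LysM label (difference 4.04), Ifna1 by 0.37 (3.19) and Ifna5 by 0.53 (3.02). Ifna4 had a LysM-labelled change of 0.37 that did not pass the test (adjusted p = 0.0776) and a difference of 2.93, and the other interferon genes tested had smaller called ones. As above, the filter could be passed through the stimulated libraries alone, so their number is no support for a difference of the family, and the call of Ifna14 was lost without the second 1 h library labelled FosKO (adjusted p = 0.0542). Of the 48 interferon-induced genes none had a difference called by limma, and 2 had an unadjusted p below 0.05.

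Il6 showed the largest positive difference among the other genes named. Its LysM-labelled libraries went from 4.84, 4.81 and 4.83 to 6.51, 6.45 and 6.50, a rise of 1.66 against 3.19 (difference 1.53, SE 0.16, adjusted p = 7.16e-06). Edn1 and Egr1 each differed by 1.08, Il12b by 0.91 and Txnip by 0.37, the last as a smaller fall under the FosKO label. Txnip was lower under that label before LPS (mean 12.28 against 12.63) and stood at 10.63 against 10.61 at 1 h. When the libraries with low 18S were left out, the Txnip difference was 0.33 and was not called. Klf2 and Arrdc4 rose more under the FosKO label by 0.96 and 0.92.

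Of the genes named, Csf2 showed the most negative difference. In the LysM-labelled libraries it reached 8.16, 8.03 and 8.12 from 3.75, 3.93 and 3.79, a rise of 4.28 against 2.85 (difference -1.43, SE 0.18, adjusted p = 6.86e-05). Olr1, the gene of the oxidised LDL receptor LOX-1, differed by -1.26 and Adora2b, the adenosine A2B receptor gene, by -1.25, with a rise of 0.50 under the FosKO label and 1.75 under the LysM label. The ERK feedback genes Dusp5 and Errfi1 differed by -1.18 and -1.14. Dusp5 was also lower under the FosKO label before LPS, at 6.92 to 7.01 against 7.87 to 7.98. Il10 reached 8.17, 8.14 and 8.43 under the LysM label, a rise of 2.26 against 1.16 (difference -1.11, SE 0.19, adjusted p = 0.00222). When the libraries with low 18S were left out, the Il10 difference was -1.06 and was not called. Ccl22 differed by -1.09, Plat by -1.05, Cxcl3 by -0.98, Cish by -0.91, Bcl3 by -0.82 and Kdm6b by -0.77. Dusp7 and Klf10 were called in opposite directions under the labels, Dusp7 at -0.32 and 0.68 and Klf10 at -0.59 and 0.24. Of the Zfp genes, Zfp36 had the 1 called difference (0.41), which was lost on leaving out any of 8 of the 12 libraries (adjusted p up to 0.0949), and their median was -0.46 under the LysM label.

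**Figure D5:**
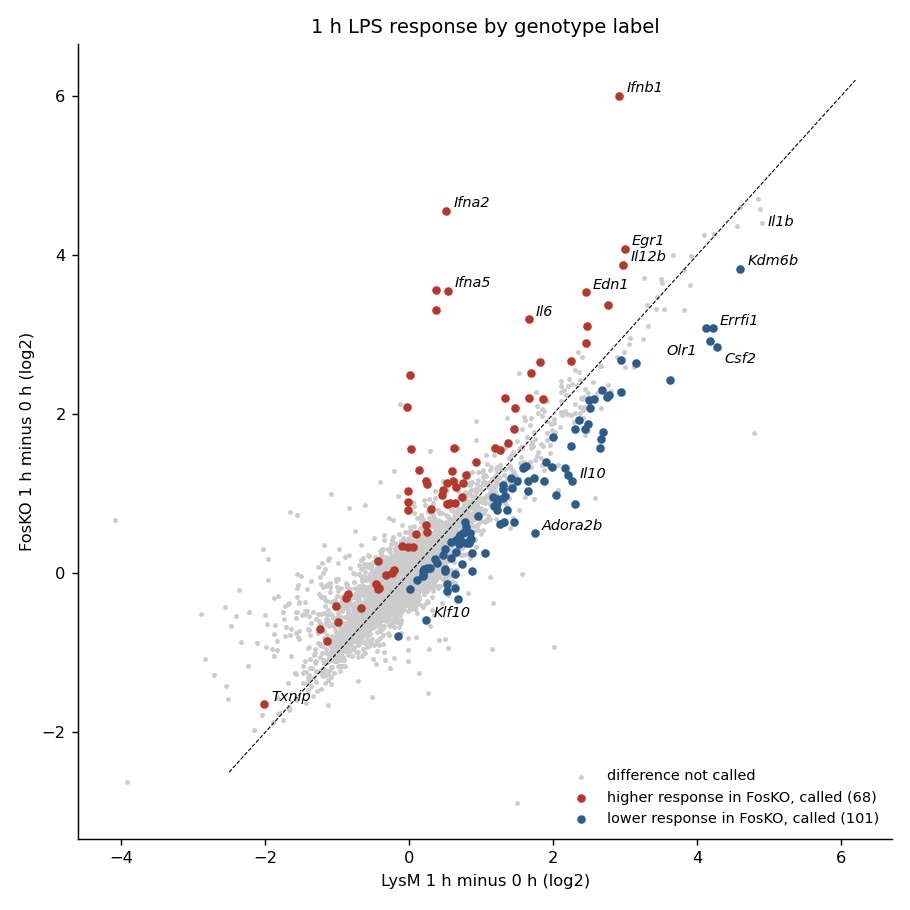
Log2 difference at 1 h under the FosKO label (y axis) against that under the LysM label (x axis) for the 13901 tested genes, with the 169 genes of a called difference in red (higher under FosKO) or blue (lower) and a dashed line of equal response. Most points follow the diagonal, the interferon genes and Il6 lie above it, and Csf2, Olr1, Adora2b, Dusp5, Errfi1 and Il10 lie below it.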

How the data were processed

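RNA-seq libraries were made from BMDM RNA, and the authors aligned reads with STAR 2.5.2a to mm10, estimated gene counts with RSEM 1.2.31 and normalised them with DESeq2 (1.16.1 in the submitters' processing notes). The deposited values are log2 normalised expression on 1 common scale for 24273 genes and 24 libraries in 8 groups of 3. Read totals are not in the table, so no counting interval was computed. Genes at 5 or more on the linear scale in at least 3 libraries were tested (13901) with limma 3.58.1 in R 4.3.3, using a mean-variance trend and all 8 group means (16 residual degrees of freedom), and Benjamini-Hochberg adjustment over all tested genes. Calls were made below an adjusted p of 0.05, and 2-fold means 1 on the log2 scale. An exact permutation test of 3 against 3 libraries cannot go below p = 0.1.

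Genes were named as the 20 largest rises and 12 largest falls at 1 h, and the 8 largest in each direction for the difference between labels and for 1 h against 0.5 h, among called protein-coding genes whose higher group mean reached 50 in linear units, plus members of 28 gene lists. Some items that the rule names are not reported here. The comparison, the lists and the tests were chosen with earlier results of these data known. Gene positions came from GENCODE M21 (GRCm38), which held 99.7% of the identifiers, and promoters from RefSeq (GRCm38.p6), which had a window for 9547 tested genes. GGGNNNTTCC and AANNGAAA were searched after the printed sequences had been seen. Alternatives were other filters, a pseudocount of 1, quantile normalisation, median centring, fewer groups in the fit, other variance models, 18S content, a replicate block and leaving out each library.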

Additional observations from a re-analysis of the deposited data

Results flagged for a closer look

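The 1 h response differed between the FosKO and LysM labels, by the test of the difference itself, for 169 genes. All values that follow are the log2 response under the FosKO label minus that under the LysM label, for the genes named in the text, each called by limma at an adjusted p below 0.05. Over all tested genes 0.489% were called positive and 0.727% negative. The lists share some members.

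The type I interferon genes below passed the filter on low values, which the stimulated libraries alone could pass, so their shared sign is no support for the family. Their differences were Ifna2 4.04, Ifna1 3.19, Ifnb1 3.09, Ifna5 3.02, Ifna4 2.93, Ifna16 2.48, Ifna6 2.11, Ifna9 1.54, Ifnab 1.04, Ifna14 0.91 and Ifna11 0.80. Of 33 cytokine genes 4 had a positive and 5 a negative called difference, and of 21 chemokine genes 3 had one, all negative. Il6 1.53, Edn1 1.08, Il12b 0.91 and Il27 0.82 were positive, and Csf2 -1.43, Il10 -1.11, Ccl22 -1.09, Cxcl3 -0.98, Ccl7 -0.64 and Csf1 -0.49 were negative. Of 32 immediate early genes 10 had a positive and 5 a negative called difference, and of 25 AP-1 and bZIP genes 3 and 2. Of those named, Egr1 1.08, Klf2 0.96, Ier2 0.60, Atf3 0.51, Egr2 0.44, Jun 0.44 and Btg2 0.34 were positive, while Klf10 -0.83, Jdp2 -0.61, Mcl1 -0.42 and Dusp1 -0.28 were negative. Of 5 NF-kB subunit genes 1 and of 18 feedback genes 4 had a called difference, all negative, among them Bcl3 -0.82, Relb -0.33 and Nfkbia -0.26. The adaptor gene Ticam1 stood at -0.26. Of 18 MAP kinase brakes 5 had a called difference, negative for Dusp5 -1.18, Errfi1 -1.14, Dusp7 -0.999 and Dusp1 and positive for Dusp6 at 0.54.

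Of 15 mRNA decay genes 3 had a called difference. Besides Btg2, the tristetraprolin family genes Zfp36l2 at 0.56 and Zfp36 at 0.41 were positive, and the cytokine signalling inhibitor Cish at -0.91 was negative. Of 39 surface and effector genes tested, 7 had a negative and 1 a positive called difference, and of 32 chemoattractant receptor genes 3 and 1. Negative in these lists were Olr1 -1.26, Adora2b -1.25, Clec4e -0.65, Gpr84 -0.63, Icam1 -0.53 and Cd83 -0.50, and outside them Plat -1.05. The positive ones were Serpinb2, the gene of the serpin PAI-2, at 0.85 and C5ar1, the complement C5a receptor gene, at 0.32, both named after their values were seen. Of 19 arrestin and deprivation genes 5 had a called difference, all positive, among them Arrdc4 0.92, Trib1 0.53, Ccng2 0.47 and Txnip 0.37. Of 30 survival genes 2 had a positive called difference, Phlda1 at 0.62 and Bbc3 at 0.37, and 3 a negative one, Mcl1 among them. Of 27 sterol genes 3 had a called difference, all positive, among them Ch25h at 0.87 and Insig1 at 0.22. The 2 called among 16 chaperone genes, Dnajb4 and Hspa1b, stood at 0.27 and -0.53, and the regulators Hhex and Kdm6b at 0.30 and -0.77. The calls of 12 of these genes were lost on leaving out some single library of the 12: Btg2 and Hspa1b without any of 10, Icam1, Il27, Nfkbia, Relb, Serpinb2 and Zfp36 without any of 8, Egr2 without any of 6, Dnajb4 without any of 4, Bbc3 without any of 3 and Ifna14 without 1, with adjusted p up to 0.147. With the libraries of high 18S only, which leaves 1 library of 1 h under the LysM label and assumes that it varies like the other groups, the calls lost were those of Ccl7, Cish, Clec4e, Csf1, Dnajb4, Dusp1, Gpr84, Hhex, Hspa1b, Icam1, Il10, Il27, Jdp2, Nfkbia, Relb, Ticam1 and Txnip, with adjusted p of 0.056 to 0.629 and each difference in the same direction as with all libraries.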

How the results depend on the processing

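Directions held for the 20 named rises and 12 named falls under every alternative run, and no named gene with a called 1 h change turned round. The count of genes called at 1 h (4534) ranged over 3844 to 4462 on leaving out single libraries and the count at least 2-fold changed (425) over 418 to 447. The count of called differences (169) ranged over 125 to 200 and that of 1 h against 0.5 h (3819) over 3091 to 3495. With only the groups compared in the fit, the called differences were 112, the calls of 1 h against 0.5 h were 2471 and those of 1 h against 0 h were 3032, where fewer libraries estimate the spread. With the libraries of high 18S only, the called differences were 93, of which 61 were positive and 32 negative, against 68 and 101 with all libraries; the cause was not tested. A replicate block within genotype gave 4948, 242 and 4259 calls for the 1 h change, the difference and the step from 0.5 h, and called Fos at 1 h (adjusted p = 0.0265). The main fit had no block because the methods of the study name none. Same-numbered 0 h and 1 h libraries deviated from their group means together at correlations of 0.238, 0.077 and 0.147. Those of different number ran from -0.172 to 0.0989, the highest between the second 1 h and the third 0 h library. Whether the numbers pair the libraries was not settled, and with pairing the block counts would apply. The unfiltered table gave 4247 calls, the stricter filter 4384, quantile normalisation 4994 and median centring 4706. Of the 312 genes at least 2-fold higher, 295 or more kept that call under each of these alternatives, and of the 113 at least 2-fold lower, 86 or more. The read depth behind each value is unknown, so small differences of low genes are the least certain.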
